A study of Mus musculus with 4 samples.

Results

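The genes of the clotting cascade and of plasminogen activation were examined in LLC tumors. LLC is the Lewis lung carcinoma line of C57BL/6 mice. The group holds 9 of the 47729 genes of the deposited table. They were chosen by name for their role, with earlier results of these data known. They are F3, Thbd, Procr, Tfpi, F2r, Plat, Plau, Plaur and Serpine2, and all 9 passed the filter on low values. RNA was measured in subcutaneous tumors taken on day 5 after grafting into C57BL/6 mice, which the methods give as 6 to 10 weeks old unless stated otherwise. In one group (LLC-Chem) the grafted cells carried a pEFIN plasmid for chemerin from residue 1 to 157, which the labels name as murine, and in the other (LLC) the labels call the cells wild type, while the study also describes cells transfected with the empty vector. Transfected cells were kept as individual clones after G418 selection, so that a difference between clones and an effect of chemerin cannot be told apart. Each group consists of 2 pools of 3 tumors each, which hold host cells as well as carcinoma cells.

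Clotting starts when tissue factor on a cell surface binds factor VII, and the cascade ends with thrombin, which cuts fibrinogen to fibrin. Endothelial cells hold it back with thrombomodulin, the endothelial protein C receptor and tissue factor pathway inhibitor, and thrombin also signals to cells through protease-activated receptors. Fibrin is dissolved by plasmin, which tissue-type and urokinase-type plasminogen activators release from plasminogen and which serpins, a family of protease inhibitors, restrain. Plasmin and several other proteases of these cascades also act on chemerin, which is secreted as a precursor and gains activity when its C-terminus is trimmed. According to the study, the form that the plasmid encodes is already processed and is active without this trimming.

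Levels are RPM, the reads of a gene relative to all reads counted in its pool, and fold changes are differences of log2(RPM + 0.5) with LLC-Chem against LLC, tested two-sided with limma and adjusted by Benjamini-Hochberg over the 13694 genes that averaged 1 RPM or more. A gene is called higher or lower at an adjusted p under 0.05. The fitted library totals ran from 28470000 to 33990000 reads, and a member was covered by 173 to 7115 reads in a pool, where counting alone gives an error of 7.60% and 1.19%. The pools are separate samples of different tumors, and p-values measure only the spread between these pools. An exact permutation of 2 pools against 2 cannot go below p = 0.33. Chemerin itself (Rarres2) was at 102.2 and 98.2 RPM in LLC and 105.9 and 105.8 RPM in LLC-Chem (adjusted p = 0.541), a difference that does not check the labels, and whether reads of the plasmid transcript were counted on Rarres2 was not tested. Of 4 genes listed as carcinoma line markers none was called. Krt8, Krt18 and Vim were measured in every pool. The summed level of all 4, nearly all of it Vim, was 4243 to 4255 RPM in LLC and 5428 to 5619 RPM in LLC-Chem. Whether Vim came from carcinoma cells or from host cells was not tested. Krt8 was at 167.1 and 152.4 RPM in LLC and at 121.7 and 82.8 RPM in LLC-Chem (limma adjusted p = 0.0578), Krt18 overlapped, and Epcam, an epithelial surface protein, stayed at or under 0.20 RPM.

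The 9 genes moved in both directions. Of these, 3 were called higher in LLC-Chem (F3, F2r and Tfpi), where 9.54% of all genes tested were called higher, and 4 were called lower (Serpine2, Procr, Plaur and Plau), against 13.5% of all genes. Thbd and Plat were not called. The median log2 fold change over the 9 genes was -0.45, with a range from -2.29 to 1.14, beside -0.04 over all genes tested. That median is the value of Thbd, whose pools overlap, and it was -0.10 without the second LLC pool and -0.71 without the first LLC-Chem pool. In 3 members both LLC-Chem pools lay above both LLC pools, as in 33.1% of all genes, and in 5 members both lay below, as in 39.3%. Summed over the 9 genes in RPM as deposited, the level was lower in both LLC-Chem pools by a small margin, with 910 and 971 RPM in LLC and 884 and 830 RPM in LLC-Chem. This order depends on the scaling. In an alternative scaling the factors were 1.036 for the first LLC pool and 0.988 for the first LLC-Chem pool, enough to reverse their order. The 7 calls were shared by edgeR's quasi-likelihood test and DESeq2 on recovered reads. Leaving out any 1 of the 4 pools, which leaves 1 pool in a group, left no member called and almost no gene in the whole table.

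**Figure D1:**
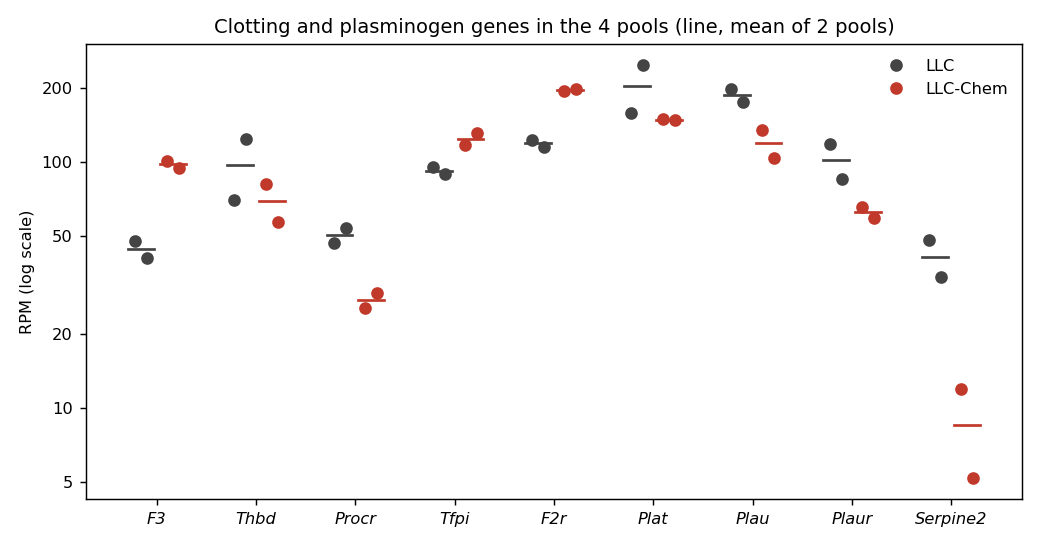
Level of each gene in each of the 4 pools, in RPM on a log scale, with points for pools and lines for the mean of the 2 pools of a group. F3, Tfpi and F2r lie higher in both LLC-Chem pools, Procr, Plat, Plau, Plaur and Serpine2 lie lower in both, and the pools of Thbd overlap.

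The transcript of tissue factor rose. F3 (ENSMUSG00000028128, chr3:121723537-121735048 on the plus strand of GRCm38) encodes this membrane receptor of factor VII. It was at 48.1 and 40.7 RPM in the LLC pools and at 101.4 and 95.3 RPM in the LLC-Chem pools. The groups were far apart compared with the gap between pools of a group. The means were 44.4 ± 5.23 RPM and 98.4 ± 4.27 RPM (SD, n = 2 each), a ratio of 2.21 and a log2 fold change of 1.14 ± 0.12 (SE, 95% interval 0.84 to 1.44, limma adjusted p = 0.0114). F3 ranked 292 from the top of the 13694 genes by log2 fold change. It also stands on the hypoxia list that the study drew from these same tumors, so its direction is not independent of that list.

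The promoter of F3 is shown because the gene had the largest rise of the 9. RefSeq gives a window from 250 bases before the start site through the first 50 bases of the transcript, at chr3:121723287-121723586 on the plus strand of GRCm38.p6. The capitals mark TGAGTCA, the letters of an AP-1 element, which begins at position -135 from the start site.
F3: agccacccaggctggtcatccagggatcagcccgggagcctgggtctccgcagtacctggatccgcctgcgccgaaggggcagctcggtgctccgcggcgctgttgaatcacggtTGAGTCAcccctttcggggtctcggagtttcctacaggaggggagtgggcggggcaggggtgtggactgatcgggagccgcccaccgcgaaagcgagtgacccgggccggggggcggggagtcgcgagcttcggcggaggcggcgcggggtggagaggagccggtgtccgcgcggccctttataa
The window also holds 3 GC boxes (GGGCGG or CCGCCC), left in lower case.

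The anticoagulants of the cell surface split. Procr (ENSMUSG00000027611, chr2:155751117-155755471, plus strand) encodes the endothelial protein C receptor, which presents protein C for activation. It was at 47.2 and 54.3 RPM in LLC and at 25.5 and 29.4 RPM in LLC-Chem. Both LLC-Chem pools were thus well below both LLC pools. The means of 50.7 ± 5.05 and 27.5 ± 2.76 RPM (SD, n = 2 each) gave a 1.85-fold lower level and a log2 fold change of -0.87 ± 0.13 (SE, 95% interval -1.21 to -0.54, limma adjusted p = 0.0168).

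Tfpi (ENSMUSG00000027082, chr2:84432855-84476775, minus strand) encodes the inhibitor that shuts off the tissue factor and factor VII complex, and it rose. Its levels were 95.6 and 89.4 RPM in LLC and 118.0 and 131.9 RPM in LLC-Chem, so that the pools did not overlap. The means were 92.5 ± 4.42 and 125.0 ± 9.82 RPM (SD, n = 2 each), a ratio of 1.35 and a log2 fold change of 0.43 ± 0.11 (SE, limma adjusted p = 0.0415). This was the smallest change among the 7 called members, and it was no longer called without the intensity trend.

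Thbd (ENSMUSG00000074743, chr2:148404466-148408188, minus strand) encodes thrombomodulin, which turns thrombin from a clotting enzyme into an activator of protein C. Its levels were 70.4 and 124.7 RPM in LLC and 81.7 and 57.1 RPM in LLC-Chem. The groups overlapped, and the pools of LLC alone differed 1.77-fold. The log2 fold change of -0.45 had a 95% interval from -1.21 to 0.30 and no call was made (limma adjusted p = 0.3). Leaving out LLC pool 1 or 2 gave -0.86 or -0.04, and leaving out LLC-Chem pool 1 or 2 gave -0.71 or -0.20.

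Endothelial cells are the usual site of Procr and Thbd. Of 8 endothelial markers, 7 were called lower and none higher. Their summed level ranged from 172.9 to 257.3 RPM in LLC and from 37.2 to 65.9 RPM in LLC-Chem, with a median log2 fold change of -2.06. None of the defining markers was at 0. The part of the endothelial markers in the levels of Procr, Thbd and Tfpi was not tested, and in bulk tumors fewer cells of a type and less RNA per cell cannot be told apart.

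The thrombin receptor rose. F2r (ENSMUSG00000048376, chr13:95601803-95618487, minus strand) encodes protease-activated receptor PAR1, a G protein-coupled receptor that thrombin cuts. It was at 122.9 and 116.0 RPM in LLC and at 194.9 and 198.4 RPM in LLC-Chem, with little spread inside either group. The means of 119.5 ± 4.88 and 196.7 ± 2.48 RPM (SD, n = 2 each) gave a ratio of 1.65 and a log2 fold change of 0.72 ± 0.09 (SE, 95% interval 0.48 to 0.95, limma adjusted p = 0.0135). F2rl1, which encodes the related receptor PAR2, lay on the other side of 0. It was at 31.5 and 20.5 RPM in LLC and at 15.1 and 13.6 RPM in LLC-Chem, a log2 fold change of -0.81 that did not pass the threshold (limma adjusted p = 0.0533). Over 15 alternative fits the value of F2rl1 ran from -1.107 to -0.503, with a call in 2 of them. F2rl3 was at or under 1.499 RPM in every pool and was not tested.

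The genes that release plasmin lay lower or were not called. Plau (ENSMUSG00000021822, chr14:20836660-20843385, plus strand) encodes the urokinase-type activator, which works at the cell surface. It was at 198.9 and 176.7 RPM in LLC and at 135.1 and 104.7 RPM in LLC-Chem, without overlap. The means were 187.8 ± 15.7 and 119.9 ± 21.5 RPM (SD, n = 2 each), a log2 fold change of -0.65 ± 0.15 (SE, 95% interval -1.03 to -0.28, limma adjusted p = 0.0359).

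Plaur (ENSMUSG00000046223, chr7:24462484-24475968, plus strand) encodes the receptor that holds urokinase on the membrane. Its levels were 118.9 and 85.6 RPM in LLC and 65.9 and 59.6 RPM in LLC-Chem. It thus moved the same way as its ligand, with means of 102.2 ± 23.6 and 62.7 ± 4.45 RPM (SD, n = 2 each) and a log2 fold change of -0.68 ± 0.17 (SE, 95% interval -1.12 to -0.25, limma adjusted p = 0.0447). The value of Plaur was -0.45 when LLC pool 1 was left out and -0.92 when LLC pool 2 was. Plau and Plaur were both lost as calls when the intensity trend was left out of the fit.

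Plat (ENSMUSG00000031538, chr8:22757727-22782844, plus strand) encodes tissue-type plasminogen activator, the activator best known from endothelium. It was at 159.4 and 249.8 RPM in LLC and at 149.7 and 148.5 RPM in LLC-Chem. Both LLC-Chem pools were below both LLC pools, but the LLC pools differed 1.57-fold between themselves. The log2 fold change of -0.42 had a 95% interval from -0.95 to 0.11 and missed the threshold (limma adjusted p = 0.193). Leaving out LLC pool 1 gave -0.74, and leaving out LLC pool 2 gave -0.10.

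Myeloid cells also carry the urokinase system. Among macrophage and monocyte markers, 4 of 7 were called lower and none higher, with a summed level from 3650 to 6535 RPM in LLC and from 1420 to 2941 RPM in LLC-Chem. Most of the sum is Lyz2, at 2596 and 5162 RPM in LLC and 2229 and 1030 RPM in LLC-Chem, without a call (limma adjusted p = 0.106). Of the called markers, Csf1r was near the threshold (limma adjusted p = 0.049) and was called in 3 of 15 alternative fits. For Itgam, 68.7% of the exon bases lie under another gene. Of 4 neutrophil markers 3 were tested and all 3 were called lower, with summed levels of 104.9 to 169.0 RPM against 16.5 to 39.6 RPM. No macrophage marker was at 0, while Ly6g, which defines neutrophils, was at or under 0.20 RPM in every pool. The part of these myeloid markers in the lower Plau and Plaur was not tested.

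The protease inhibitor fell the furthest. Serpine2 (ENSMUSG00000026249, chr1:79794197-79861180, minus strand) encodes protease nexin-1, a serpin that inhibits thrombin, urokinase and tissue-type activator near the cell surface. It was at 48.2 and 34.2 RPM in LLC and at 11.99 and 5.20 RPM in LLC-Chem. The higher LLC-Chem pool was still well below the lower LLC pool, although the LLC-Chem pools differed 2.31-fold. The means were 41.2 ± 9.89 and 8.60 ± 4.81 RPM (SD, n = 2 each), so that LLC-Chem held 20.8% of the level in LLC. The log2 fold change was -2.29 ± 0.39 (SE, 95% interval -3.26 to -1.31, limma adjusted p = 0.0203), and it ran from -2.85 to -1.72 when 1 pool was left out. Serpine2 ranked 90 from the lowest of the 13694 genes.

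Of 5 fibroblast markers 2 were called lower (Col1a1 and Col1a2) and 1 higher (Pdgfra), with summed levels from 11800 to 20339 RPM in LLC and from 6869 to 8559 RPM in LLC-Chem. The sum follows the 2 collagens, whereas the median log2 fold change of the 5 was 0.72. Dcn and Lum lay higher in both LLC-Chem pools without a call (log2 0.80 and 1.00, limma adjusted p = 0.0753 and 0.0776). Over 15 alternative fits Dcn ran from 0.498 to 1.096 and Lum from 0.59 to 1.416, and each was called in 2. All 4 markers of mural cells, which wrap vessels, were called lower, with sums of 183.0 to 217.2 RPM and 40.3 to 61.1 RPM. The part of fibroblast and mural markers in the fall of Serpine2 was not tested.

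The promoter window of Serpine2 is shown for its run of GC boxes. It lies at chr1:79858616-79858915 on the minus strand of GRCm38.p6, with the 6 matches to GGGCGG in capitals.
Serpine2: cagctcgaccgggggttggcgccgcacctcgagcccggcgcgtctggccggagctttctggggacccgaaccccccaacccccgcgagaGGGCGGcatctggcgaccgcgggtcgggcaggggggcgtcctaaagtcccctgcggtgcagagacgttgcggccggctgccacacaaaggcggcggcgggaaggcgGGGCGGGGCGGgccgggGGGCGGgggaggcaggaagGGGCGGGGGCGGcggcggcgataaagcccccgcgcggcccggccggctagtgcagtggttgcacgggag
Counted from the start site, the matches begin at positions -161, -55, -50, -38, -19 and -13, and those at -55 and -50 share a base.

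**Figure D2:**
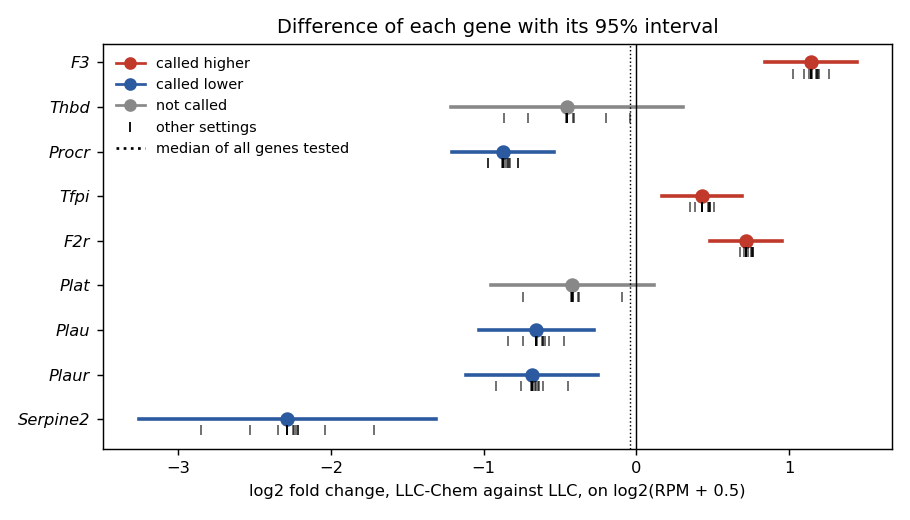
Log2 fold change of each gene on log2(RPM + 0.5) with its 95% interval from limma, and short ticks for the value under each other setting. F3 lies highest at 1.14 and Serpine2 lowest at -2.29, and the intervals of Thbd and Plat cross 0.

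RefSeq windows were found for 6 of the 9 genes, with 2 start sites for Tfpi, and none was given for Thbd, Plat or Plau. An AP-1 element, TGAGTCA or its other strand TGACTCA, stood in 4 of the 7 windows, against 5.2% of all 32851 windows of the same length. The stretches around the 4 matches, with 20 bases on each side, are shown because the 4 genes lie on both sides of 0, F3 and F2r higher and Procr and Plaur lower. Capitals mark the element, and each is written on the strand of its gene.
F3: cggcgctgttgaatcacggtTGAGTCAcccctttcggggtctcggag
F2r: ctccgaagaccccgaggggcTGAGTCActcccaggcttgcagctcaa
Procr: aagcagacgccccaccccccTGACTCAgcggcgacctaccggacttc
Plaur: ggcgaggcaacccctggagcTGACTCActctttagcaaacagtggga
They lie in GRCm38.p6 at chr3:121723382-121723428 (plus) for F3, chr13:95618644-95618690 (minus) for F2r, chr2:155751043-155751089 (plus) for Procr and chr7:24462394-24462440 (plus) for Plaur. F3 and F2r read TGAGTCA on the gene strand, whereas Procr and Plaur read TGACTCA. Counted from the start site, the elements begin at positions -135, -204, -154 and -69 in F3, F2r, Procr and Plaur.

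GC boxes were found in 6 of the 7 windows, all but that of Procr, against 35.7% of all windows. The core of a hypoxia response element, ACGTG or CACGT, was in the first Tfpi window alone, where the letters of the 2 strands overlap, and in 19.6% of all windows. A TATA box written as TATAAA on the gene strand was in none of the 7, against 8.32% of all windows. The F3 window ends in the letters TATAA, and a match that crosses the edge of a window could not be found. These matches are letters in a window and were not tested.

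**Figure D3:**
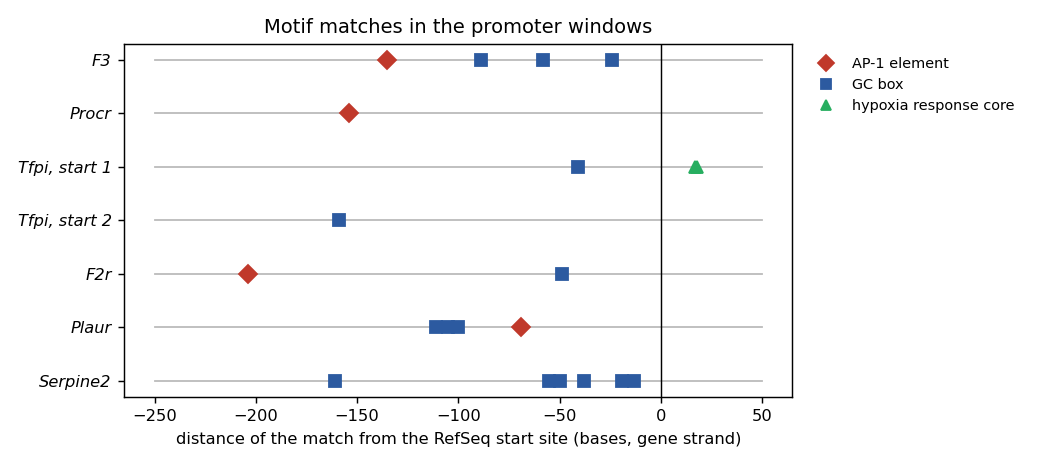
Position of motif matches in the promoter windows, in bases from the RefSeq start site on the gene strand, with diamonds for AP-1 elements, squares for GC boxes and triangles for hypoxia cores. AP-1 elements stand in the windows of F3, Procr, F2r and Plaur, and Serpine2 has 6 GC boxes.

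Levels were compared between genes only per length, as RPKM, that is RPM per kilobase of merged exons. In LLC, Plau stood first at 79.3 RPKM, apart from Plaur at 39.1 RPKM. Plaur, F2r (35.8 RPKM), Plat (32.8 RPKM), Thbd (26.2 RPKM) and Procr (24.99 RPKM) followed, and each neighbour in that order overlapped the next. F3 at 17.6 RPKM was apart from Procr but overlapped Tfpi at 16.9 RPKM, and Serpine2 came last at 4.98 RPKM. In LLC-Chem the order began with F2r at 59.0 RPKM, Plau at 50.7 RPKM and F3 at 38.9 RPKM, which did not overlap their neighbours. Plaur (24.0 RPKM), Plat (23.9 RPKM), Tfpi (22.9 RPKM) and Thbd (18.6 RPKM) overlapped neighbour by neighbour. Procr at 13.5 RPKM and Serpine2 at 1.04 RPKM stood apart below them. Thus F3 moved from the seventh place to the third, and F2r from the third to the first.

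Other genes of the same cascades were read in 6 lists of 54 genes, of which 28 passed the filter, 2 were called higher (Pros1 and Mmp14) and 10 lower, where 9.54% and 13.5% of all genes tested were called higher and lower. Their median log2 fold change was -0.07. In LLC-Chem 9 of the 28 did not overlap LLC on the higher side and 12 on the lower side, beside 33.1% and 39.3% of all genes tested. Of the 12 calls, DESeq2 kept 12 and edgeR's quasi-likelihood test 11, whereas 8 were kept without the intensity trend, and none with all genes above 0 in the fit or with any 1 pool left out.

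Of 18 genes for clotting factors and fibrinogen, 8 were tested, 3 were called lower and none higher, with a median log2 fold change of 0.06. F7, the enzyme that tissue factor binds, was at 10.99 and 15.3 RPM in LLC and at 5.50 and 4.05 RPM in LLC-Chem, a log2 fold change of -1.37 (limma adjusted p = 0.0219). F10, the factor that this complex activates, fell by 1.55 in log2 units (adjusted p = 0.0443), and Vwf, the endothelial and platelet adhesion protein, fell by 1.47 (adjusted p = 0.0146). F10 was not called by edgeR's quasi-likelihood test or without the intensity trend, and its log2 fold change was -1.02 when LLC-Chem pool 2 was left out. F7 and F10 thus lay on the other side of 0 from F3. F13a1, the fibrin cross-linking factor found in macrophages, was at 360.7 and 530.9 RPM in LLC and at 765.7 and 462.8 RPM in LLC-Chem, with overlap and no call (adjusted p = 0.296), and Ggcx, the vitamin K-dependent carboxylase, was at 25.1 ± 2.90 and 32.5 ± 2.33 RPM (SD, n = 2 each, adjusted p = 0.105).

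Fibrinogen and plasminogen were chosen for mention after their values were seen. Fga, Fgb, Fgg and Plg were at 0 in all 4 pools, which allows a level of up to 0.088 to 0.105 RPM (3 reads, counting error only). Fibrinogen and plasminogen were thus not detectable as transcripts at this depth.

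Of 5 platelet markers 4 were tested, and Pf4 and Ppbp were called lower. Their summed level was 382.6 to 407.6 RPM in LLC and 165.6 to 196.8 RPM in LLC-Chem, with Gp9 at or under 0.10 RPM. The sum follows Pf4 and Ppbp, since Itga2b was at 8.70 and 11.7 RPM in LLC and at 13.4 and 17.0 RPM in LLC-Chem (log2 0.56, limma adjusted p = 0.11) and Gp1bb overlapped. The part of platelets and of the endothelial markers in the lower Vwf was not tested.

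Among 7 other anticoagulants, 3 were tested. Pros1, which encodes protein S, the cofactor of activated protein C, was at 155.0 and 148.5 RPM in LLC and rose to 201.0 and 207.4 RPM, a log2 fold change of 0.43 (limma adjusted p = 0.0326). Without the intensity trend this call was lost. Tfpi2, a relative of Tfpi, went the other way, with 9.20 and 17.7 RPM in LLC and 4.10 and 3.35 RPM in LLC-Chem (log2 change -1.66, limma adjusted p = 0.0267). Anxa5, a phospholipid-binding protein, was not called (adjusted p = 0.144). The median of the 3 was 0.32. The other 3-gene list, of protease-activated receptors, held only F2rl1 above the filter.

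Of 7 genes for plasminogen and its binding proteins, 6 were tested and 1 was called. Mmp14, a membrane metalloproteinase, was at 674.5 and 799.4 RPM in LLC and rose to 1233 and 1157 RPM (log2 change 0.70, limma adjusted p = 0.0307). Anxa2 and Eno1, cell surface binding sites of plasminogen, were at 1711 and 1437 RPM in LLC and at 1735 and 1625 RPM in LLC-Chem on average and were not called (adjusted p = 0.928 and 0.419). The median of the 6 was 0.19.

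Of 7 other inhibitors of fibrinolysis and of the activators, 3 were tested, 2 were called lower and none higher, with a median of -1.23. Serpinb2, the plasminogen activator inhibitor PAI-2, was at 44.98 and 56.9 RPM in LLC and at 8.80 and 13.1 RPM in LLC-Chem, a log2 fold change of -2.19 ± 0.23 (SE, limma adjusted p = 0.011), and 12.4% of its exon bases lie under other genes. Serping1, the C1 inhibitor, was at 309.3 and 364.8 RPM in LLC and at 179.4 and 114.1 RPM in LLC-Chem (log2 change -1.23, limma adjusted p = 0.0238). Serpini1, neuroserpin, was close to the filter at 1.10 and 0.95 RPM on average (adjusted p = 0.748).

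Of 12 other proteases reported to process chemerin, 7 were tested, 4 were called lower and none higher, with a median of -1.08. Ctsk, cathepsin K, was at 139.9 and 172.7 RPM in LLC and at 59.4 and 42.1 RPM in LLC-Chem (log2 change -1.63, limma adjusted p = 0.0127). The mast cell proteases Cma1 and Tpsb2 fell by 1.85 and fell by 1.71 in log2 units (limma adjusted p = 0.0332 and 0.0335). Both calls were lost without the intensity trend. Their log2 fold changes were -1.292 and -1.151 without LLC pool 1 and -2.405 and -2.265 without LLC pool 2. Whether reads were shared between Tpsb2 and its related neighbour Tpsab1 was not tested. Prtn3, proteinase 3 of neutrophils, was at 1.80 and 1.95 RPM in LLC and at 0.70 and 0.55 RPM in LLC-Chem (adjusted p = 0.0328). Of those not called, the 2 with the highest RPM, Ctsl at 2216 and 1964 RPM and Capn2 at 418.3 and 431.6 RPM on average in LLC and LLC-Chem, had adjusted p = 0.557 and 0.767. The part of the neutrophil markers in the lower Prtn3 was not tested.

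**Figure D4:**
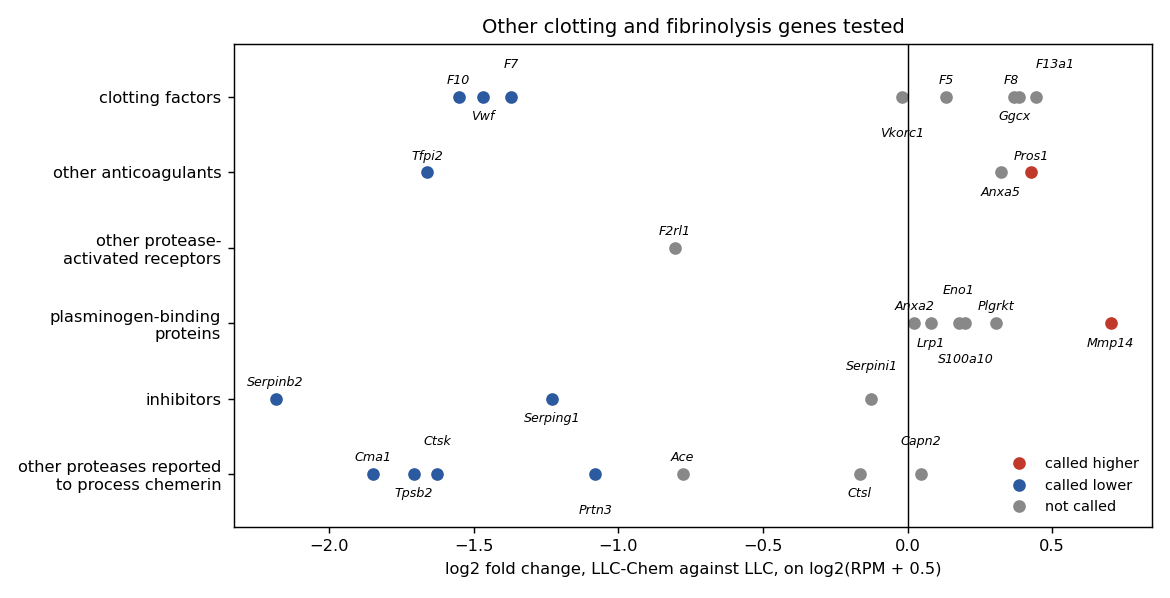
Log2 fold change on log2(RPM + 0.5) of the 28 other listed genes that were tested, 1 row per list and 1 point per gene, red for called higher, blue for called lower and grey for not called. Serpinb2 lies lowest at -2.19 and Mmp14 highest at 0.70.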

How the data were processed

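RNA of 4 tumor pools (LLC and LLC-Chem, 2 each) was measured by RNA-seq. The authors aligned reads with STAR to GRCm38.p4, used HTSeq to count them per Ensembl gene and deposited RPM (versions and the use of strand are not given in the sources used here). Of 47729 identifiers, 47224 are in GENCODE M21, which gave coordinates and exon lengths.

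The deposited RPM are whole steps of 0.04997 (100% of nonzero values within 0.005 RPM). The sums of the steps, near 20000000 in every pool, show rescaling, and read totals of 28470000 to 33990000 were fitted from the spacing of values. Pools of a group were compared for duplicate libraries, and none was found (chi-square per gene 66.2 in LLC and 27.1 in LLC-Chem).

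From RPM, limma 3.58.1 in R 4.3.3 (lmFit, eBayes with trend) was run on log2(RPM + 0.5), tested on simulated data first. Alternatives were edgeR 4.0.16 and DESeq2 1.42.0 on recovered reads, pseudocounts of 0.1 and 1, other scalings and filters, no trend, a replicate block and leaving out each pool. Motifs were searched by their letters in the RefSeq promoter windows.

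The members and the other lists were chosen with earlier results of these data known. Named are the 9 members, every called gene of the 6 other lists and, of those not called, up to 2 per list with the highest mean RPM. A result for 1 further listed gene is not reported here, and the counts and medians leave it out. Groups came from the sample labels.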

Additional observations from a re-analysis of the deposited data

How the results depend on the processing

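The directions of all 9 members held in all 15 alternatives, but much of this was fixed in advance. A change of filter, trend or block leaves the fold change as it is. Leaving out 1 pool cannot reverse a member whose pools do not overlap. Of the 135 values, 95 stayed on the same side of the threshold, 39 lost the call and 1 gained it. Of the 95, 14 belong to Thbd and 15 to Plat, which had no call to lose. With all 26260 genes above 0 in the fit, limma called 0 members higher and 0 lower, and 1 gene in all. Without the intensity trend 2 members were called lower (Procr and Serpine2) and Plau, Plaur and Tfpi were lost. Leaving out each pool in turn gave 0 to 0 members called higher and 0 to 0 called lower. Those fits tested at least 13618 genes with 3 pools and called 0 to 4 genes in all, and the lone pool is assumed to vary like the other group. Deviations of pools with the same number correlated at -0.14, so the numbers pair nothing known, and the fit with the replicate block called 2 members higher (Tfpi was lost) and 4 lower, kept 8 of the 12 calls in the other lists (Pros1, Mmp14, F10 and Prtn3 were lost), and called 549 and 1064 genes in all against 1306 and 1848 without it. With the pairing crossed, an alternative chosen after seeing the data, 3 members were called higher and 5 lower (Thbd was gained), and 1579 and 2320 genes in all. The counts over all genes rose to 1877 higher and 2266 lower with DESeq2. With 2 pools per group, the spread itself is known only roughly, whatever the read depth.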

Other observations

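Ratios of paired factors per kilobase were formed after the values were seen and are given with no test. The ratio of F3 to its inhibitor Tfpi was 1.09 and 0.985 in the LLC pools and 1.86 and 1.56 in the LLC-Chem pools. The ratio of Plau to Serpine2 was 14.4 and 18.1 in LLC and 39.4 and 70.5 in LLC-Chem, and that of Plat to Serpine2 was 4.39 and 9.69 in LLC and 16.6 and 37.9 in LLC-Chem. These 3 ratios did not overlap between the groups. The ratio of F2r to F2rl1 was 3.21 and 4.64 in LLC and 10.6 and 11.95 in LLC-Chem. The ratio of Plau to Plat overlapped, with 3.29 and 1.86 in LLC and 2.38 and 1.86 in LLC-Chem, as did that of Procr to Thbd, with 1.23 and 0.798 in LLC and 0.573 and 0.945 in LLC-Chem. A ratio within a pool shows unequal change and not which of the genes changed.

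The neutrophil proteases Elane and Ctsg, named after their values were seen because they are known to act on chemerin, were below the filter. Elane was at 0.05 and 0 RPM in LLC and Ctsg at 0.35 and 0.10 RPM, and both were at 0 in the LLC-Chem pools, which allows up to 0.088 and 0.09 RPM there.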
